A study of Mus musculus with 4 samples.

Results

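The genes described here are the mouse cytochrome P450 genes outside the lipid hydroxylases, together with Por, measured in livers that lacked or kept Ubc13 in hepatocytes. They were chosen by name: every gene whose symbol is Cyp followed by a digit, plus Por. The Cyp4a genes, Cyp7a1, Cyp7b1, Cyp8b1, Cyp27a1, Cyp39a1, Cyp51 and all pseudogenes were left out. This gave 88 of the 56953 gene rows, made up of 86 coding P450 genes, Por and the antisense transcript Cyp4x1os. No measured value entered the choice. The libraries were 3' mRNA libraries, in which each transcript gives reads from its 3' end whatever its length, so levels are in CPM, counts scaled to a common library size, and were not divided by length. The control group held 2 samples from Ubc13 flox/flox mice without albumin-Cre (Alb negative; their genotype is labelled WT, although they carry the floxed alleles). The deletion group held 2 samples from Ubc13 flox/flox mice with albumin-Cre, a Cre recombinase driven by the albumin promoter, which is active in hepatocytes and not in most other liver cells. All 4 samples came from mice aged 2 months on a normal diet. Liver is the labelled source, while the library protocol names RNA of primary hepatocytes. The labels do not name the animals. The deletion replicates were not 2 preparations of the same RNA. The Y-linked Ddx3y was read 719 times in deletion replicate 2 and 0 times in deletion replicate 1. Y-linked RNA gives no such evidence for the controls. The spread of the controls was far beyond counting noise (chi-square per degree of freedom 38.9), but the labels do not show whether it lies between animals or between preparations. Each p-value measures the spread between these samples.

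Cytochromes P450 are heme enzymes, most of them in the endoplasmic reticulum, that insert an oxygen atom into drugs, toxins, steroids, fatty acids and vitamins. Those of the endoplasmic reticulum receive electrons from NADPH through a single flavoprotein, NADPH-cytochrome P450 reductase, encoded by Por, and some also from cytochrome b5. The mitochondrial ones, such as Cyp11a1 and Cyp24a1, use ferredoxin and its reductase (Fdx1 and Fdxr) instead. In liver the Cyp1, Cyp2 and Cyp3 families carry most of the oxidation of foreign compounds, and many of their genes lie in clusters of close copies. Their transcription depends on liver factors such as HNF4α and on receptors that sense foreign compounds, among them CAR (Nr1i3), PXR (Nr1i2) and AhR. Several mouse members also differ by sex through growth hormone, and several are restricted to the hepatocytes around the central vein or around the portal tract.

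Each library held 16270424 to 17800138 counts, so that 3 counts, the level a count of 0 still allows, equal 0.169 to 0.184 CPM. Ube2n, the gene of Ubc13, had 41.3 and 44.9 CPM in the controls, against 5.88 and 5.97 CPM after deletion. Albumin made up 10.8% and 10.3% of control counts and 4.87% of the counts of each deletion library. Of 9 tested hepatocyte markers 1 was called, Ttr, which was lower (3 lower and 1 higher at an unadjusted p under 0.05; DESeq2 called 4 lower and 1 higher). Macrophage markers summed to 322 and 438 CPM in the controls, against 828 and 706 CPM after deletion, with 3 of 10 called higher. Over all tested genes 4.41% were called higher and 2.16% lower. Cholangiocyte markers summed to 130 and 77.5 CPM in the controls, against 1368 and 1970 CPM after deletion, with 2 of 8 called higher. Spp1 made up most of the sums after deletion (1327 and 1916 CPM), while 4 of the 8 markers had a negative log2 fold change, Krt19 among them (-2.63), and the list median was -0.29. None of the 7 endothelial or 7 stellate cell markers was called by edgeR (at an unadjusted p under 0.05, 2 and 1 were lower; by DESeq2, 1 and 0 were lower), and no marker of any list was at 0 in all libraries. The part of these cell types in the results below was not tested, and in bulk tissue fewer hepatocytes and less RNA per hepatocyte cannot be told apart. The groups also differed in sex-linked RNA: Xist stood at 0.555 and 0.137 CPM in the controls, against 527 and 201 CPM after deletion. The Y-linked genes, scaled to the control mean, were at 0.978 and 1.02 in the controls, at 0 in deletion replicate 1 and at 0.656 in deletion replicate 2. Sex-linked RNA therefore differed with genotype and could be separated from it only as far as deletion replicate 2 differs from deletion replicate 1.

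The P450 genes were mostly lower in the deletion libraries. Of the 88 members 61 passed the filter on low counts and were tested, 8 had 0 counts everywhere, and 19 had at least 1 count but fell below the filter. A member is called when its adjusted p in edgeR's quasi-likelihood test over all 14600 tested genes is under 0.05. By that rule 12 members fell and 2 rose. The share of tested members that fell was 19.7%, against 2.16% of all tested genes, and the share that rose was 3.28%, against 4.41% of all tested genes. The log2 fold change, deletion over control, was negative for 52 of the 61 and positive for 9, with a median of -0.80 beside -0.0036 over all tested genes. In 37 members both deletion libraries were below both controls, in 4 both were above, and in 20 the groups overlapped; over all tested genes the groups did not overlap in 27.3% with the deletion lower and in 28.7% with the deletion higher. At an unadjusted p under 0.05, 35 members were lower and 4 higher, and DESeq2 called 24 lower and 2 higher. Over all tested genes DESeq2 made 1647 calls, 60.3% of them higher. The share of all tested genes at that unadjusted p is not given here. The shares of 2.16% and 4.41% above are therefore no background for such counts, here or in the lists below. Cyp3a57 and Cyp4f18 passed the filter on low counts only through the deletion libraries, and Cyp2t4 only through the controls. Their places in the counts of this paragraph are not independent of that filter. More members were called lower when either control replicate was left out, and fewer when either deletion replicate was left out. Calls over all tested genes moved the same way. With library sizes alone in place of TMM factors, which moves the median of all genes to 0.29 on the log2 scale, 10 members fell and 4 rose, so that 28.6% of member calls were higher against 14.3% in the reported fit. Over all tested genes that share was 88.5% against 67.2%. When the share of Y-linked RNA was added to the fit, which leaves 1 residual degree of freedom, 1 of the 14 calls held, that of Cyp2c54 (adjusted p = 0.0436), and none of the subfamily sums below did. The median log2 fold change over the tested members was -0.97 in that fit, beside -0.80 without the covariate.

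**Figure D1:**
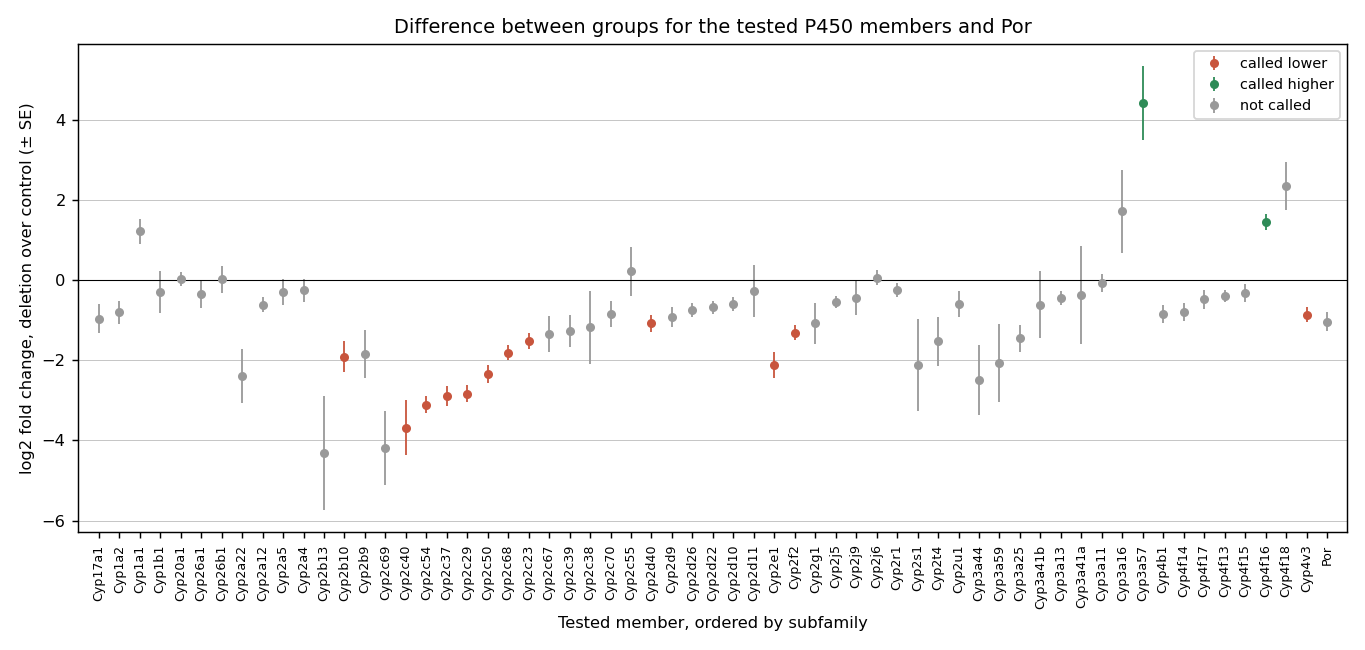
Log2 fold change (deletion over control, vertical axis) of the 61 tested members, ordered by subfamily along the horizontal axis; points are edgeR estimates, bars are ± 1 standard error, and colour gives the call. The Cyp2c genes hold 7 of the 12 members called lower, and wide bars mark members whose replicates were far apart, such as Cyp2b13.

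Because close copies can exchange reads, each subfamily was also summed and tested as 1 feature. The 88 members fall into 35 subfamilies (Por and the antisense transcript counted alone), of which 23 were tested. The sums of Cyp2c, Cyp2e, Cyp2f and Cyp4v fell, which is 17.4% of the tested sums against 2.16% of all features in that table called lower. No sum was called higher, against 4.43% of all features in that table; at an unadjusted p under 0.05, 13 sums were lower and 0 higher, and DESeq2 called 7 lower and 0 higher. More sums were called lower when either control replicate was left out, and fewer without deletion replicate 2, as with the calls over all tested genes. The risk of shared reads was measured on the sequence: 43 of the 61 tested members have no 75-base window in the last 300 bases of their coding transcripts that also occurs in another gene, and 18 have at least 1. The 2 Cyp3a41 genes are identical over all those windows and are not separable. Shares of 28.1% in Cyp2d10, 21.2% in Cyp2c67 and 17.9% in Cyp2c40 come next. The larger clusters lie, in GRCm38, on chromosome 19 (15 Cyp2c genes), on chromosome 5 from 137892932 to 146113287 (9 Cyp3a genes), on chromosome 15 from 82370527 to 82794294 (8 Cyp2d genes), on chromosome 4 from 96027534 to 96664154 (8 Cyp2j genes) and on chromosome 7. There the 5 Cyp2b genes span 25897620 to 26772630 and the 4 Cyp2a genes, partly among them, 26307169 to 27037375.

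**Figure D2:**
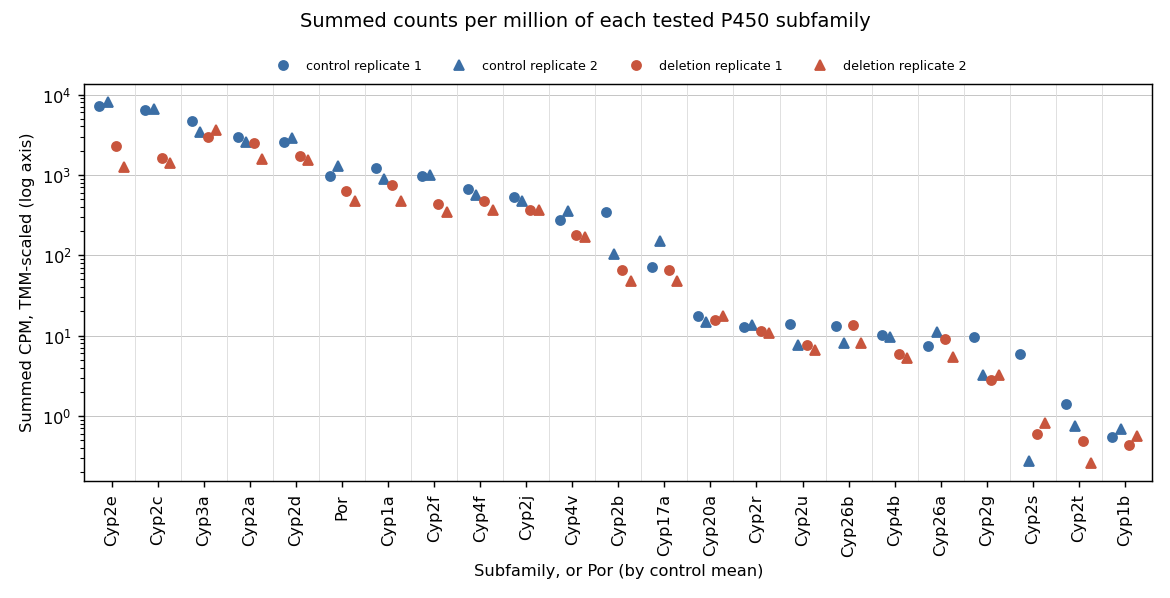
Summed CPM (log axis) of each tested subfamily and of Por, ordered by control mean, with 1 point per library. The Cyp2e and Cyp2c sums, the highest in both controls, sit well below the control points in both deletion libraries, while the points of Cyp3a overlap.

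The P450 pool differed in both size and makeup between the groups. The 86 coding P450 genes took 2.55% and 2.42% of all counts in the controls, against 1.45% and 1.27% after deletion. On the TMM-scaled CPM this was 27542 ± 671 in the controls and 12370 ± 1616 in the deletion libraries (SD, n = 2 each), a 2.23-fold lower level. Cyp2e accounted for 38.9% of that difference and Cyp2c for 32.7%, together 71.6%.

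Within the pool the shares differed in opposite directions. Cyp2e held 26.0% and 29.7% of P450 counts in the controls, against 16.8% and 11.3% after deletion. Cyp2c held 22.7% and 24.4%, then 12.1% and 12.5%. Cyp3a held 16.5% and 12.6% in the controls, against 22.1% and 31.9% after deletion, and Cyp2a 10.7% and 9.42%, then 18.5% and 14.1%. For each of these 4 subfamilies the groups did not overlap, and the exact 95% binomial intervals, which cover counting error only, were narrow next to these differences. With 2 libraries a group no exact permutation test of a share can pass the threshold, so the shares are given without a p (the smallest it allows is 0.333). The leading transcript differed as well: Cyp2e1 had the most counts of any P450 gene in both controls and Cyp3a11 in both deletion libraries. There were 0.456 and 0.337 Cyp3a11 counts per Cyp2e1 count in the controls, against 1.14 and 2.48 after deletion. P450 counts per count of Por, the shared reductase, were 28.8 and 21 in the controls, against 21.5 and 23.8 after deletion, so that ratio overlapped between the groups.

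**Figure D3:**
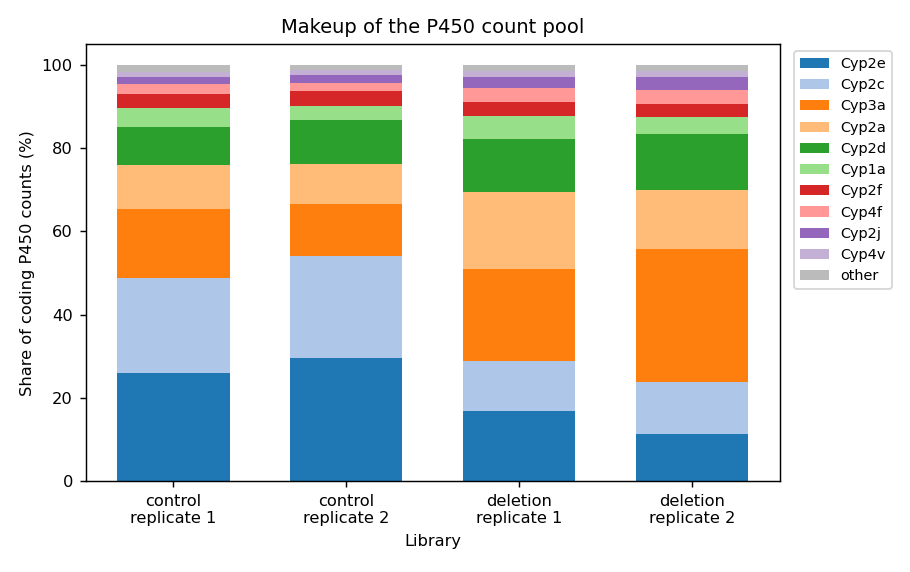
Share of all coding P450 counts (%, vertical axis) held by each of 10 subfamilies and by the others, 1 stacked bar per library. Cyp2e and Cyp2c shrink from the control to the deletion bars. Cyp3a and Cyp2a, like Cyp2d, Cyp4f, Cyp2j and Cyp4v, take a larger share of a smaller pool.

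Cyp2c was the subfamily with the most calls. Its enzymes oxidise drugs, and several turn arachidonic acid into epoxides. The summed level was 6366 and 6600 CPM in the controls, against 1631 and 1407 CPM after deletion, 6483 ± 166 against 1519 ± 159 (SD, n = 2 each). The sum fell 4.27-fold (log2 fold change -2.09 ± 0.22 SE, adjusted p = 0.00687). Of 15 Cyp2c genes 13 were tested, 7 fell and none was called higher (11 lower and 0 higher at an unadjusted p under 0.05; DESeq2 called 9 lower and 0 higher). All 15 lie on chromosome 19 between positions 39007019 and 44029208 of GRCm38.

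The genes that fell hold most of the subfamily's RNA. Cyp2c29, a pericentral gene and the most abundant member in the controls, had 2013 and 1544 CPM in the controls, against 255 and 243 CPM after deletion (7.15-fold lower, log2 -2.84 ± 0.21, adjusted p = 0.0040). Cyp2c50 had 1332 and 1026 CPM, then 257 and 205 CPM (5.11-fold lower, log2 -2.35 ± 0.22, adjusted p = 0.00585). Both genes kept their 2 groups far apart, with replicates closer to each other than to the other group. Cyp2c54 had 555 and 489 CPM, then 51.6 and 69.8 CPM (8.60-fold lower, log2 -3.11 ± 0.22, adjusted p = 0.0039). Cyp2c37 had 492 and 391 CPM, then 48.1 and 70.4 CPM (7.45-fold lower, log2 -2.90 ± 0.25, adjusted p = 0.00501). Cyp2c37, Cyp2c54 and Cyp2c50 are neighbours in the cluster, in that order, and none of the 3 shares a 75-base window at its 3' end with another gene. Cyp2c68 had 394 and 496 CPM, then 118 and 137 CPM (3.49-fold lower, log2 -1.81 ± 0.19, adjusted p = 0.00779). Cyp2c23, which lies apart from the rest of the cluster and whose enzyme is an arachidonic acid epoxygenase, had 311 and 399 CPM, then 113 and 134 CPM (2.88-fold lower, log2 -1.52 ± 0.19, adjusted p = 0.0125).

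Cyp2c40 and Cyp2c69 were less even between replicates, and both are female-predominant genes. Cyp2c40 had 253 and 521 CPM in the controls, against 12.7 and 47.6 CPM after deletion (12.8-fold lower, log2 -3.68 ± 0.68, adjusted p = 0.0335). Cyp2c69, the adjacent gene, had 115 and 383 CPM, then 4.23 and 23.0 CPM (log2 -4.19 ± 0.91), and missed the threshold (adjusted p = 0.0519). It passed without control replicate 1 (1.95e-05), without control replicate 2 (0.000553) and without deletion replicate 2 (0.0319). Cyp2c40 shares windows with Cyp2c67, Cyp2c68 and Cyp2c69, so the split of reads among these 4 is uncertain. In Cyp2c67 the controls were at 43.5 and 124 CPM and the deletion libraries at 31.9 and 33.9 CPM, without overlap and without a call.

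The other Cyp2c genes were not called. Cyp2c70, whose enzyme makes the muricholic acids of mice, had 815 and 1202 CPM in the controls, against 720 and 409 CPM after deletion (log2 -0.84 ± 0.33, adjusted p = 0.186); it is singled out here because, after its values were seen, it was the most abundant Cyp2c gene without a call. Cyp2c55, a target of CAR and PXR, had 31.9 and 7.21 CPM, then 18.3 and 27.4 CPM (log2 0.22 ± 0.61, adjusted p = 0.870). The direction of Cyp2c55 rested on single libraries: log2 1.66 (adjusted p = 0.00125) without control replicate 1, -0.48 without control replicate 2 and -0.10 without deletion replicate 2. Cyp2c38 and Cyp2c39 stayed between 1.37 and 13.0 CPM. Cyp2c65 had 47 counts in control replicate 1, 4 in deletion replicate 1 and 0 in the others, and Cyp2c66 had 0 counts in all 4 libraries.

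**Figure D4:**
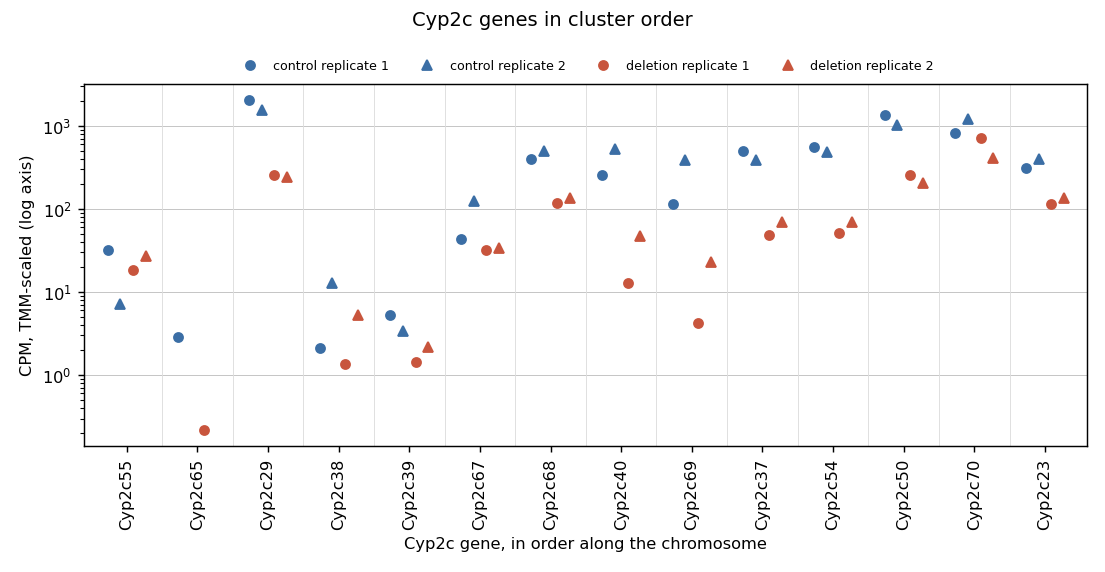
CPM (log axis) of the Cyp2c genes in their order along chromosome 19, 1 point per library; libraries with 0 counts of Cyp2c65 and the gene Cyp2c66, at 0 throughout, are not drawn. From Cyp2c68 to Cyp2c50 both deletion points lie below both control points in every gene, whereas those of Cyp2c55 lie between the controls.

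The promoters of these genes are shown because neighbours that fell share letters upstream of their starts that a gene without a call also has. The 130 bases before the RefSeq start (GRCm38.p6) are given 5′ to 3′ on the gene's strand; capitals mark a match to CAAAGNNCA, a form of the direct repeat that HNF4α binds, searched on both strands. The genes were picked after their values were seen. They are Cyp2c37 (chr19:39992294-39992423, plus strand, match from 63 bases before the start), Cyp2c50 (chr19:40089549-40089678, plus strand, 61 bases), Cyp2c40 (chr19:39812815-39812944, minus strand, 45 bases), Cyp2c68 (chr19:39741102-39741231, minus strand, 77 bases), Cyp2c29 (chr19:39286955-39287084, plus strand, no match), Cyp2c70 (chr19:40187287-40187416, minus strand, 64 bases) and, from another subfamily, Cyp3a11 (chr5:145879855-145879984, minus strand, 109 bases).
Cyp2c37: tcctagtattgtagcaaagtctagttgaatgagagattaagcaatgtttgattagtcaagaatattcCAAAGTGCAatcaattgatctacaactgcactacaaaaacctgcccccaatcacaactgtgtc
Cyp2c50: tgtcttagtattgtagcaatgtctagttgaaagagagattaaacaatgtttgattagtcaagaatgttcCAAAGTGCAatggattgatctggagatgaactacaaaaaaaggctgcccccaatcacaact
Cyp2c40: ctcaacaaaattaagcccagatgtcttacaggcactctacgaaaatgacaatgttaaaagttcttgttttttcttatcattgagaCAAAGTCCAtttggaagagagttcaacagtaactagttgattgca
Cyp2c68: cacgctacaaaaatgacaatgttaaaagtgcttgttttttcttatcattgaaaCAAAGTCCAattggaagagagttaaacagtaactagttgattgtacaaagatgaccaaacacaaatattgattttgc
Cyp2c29: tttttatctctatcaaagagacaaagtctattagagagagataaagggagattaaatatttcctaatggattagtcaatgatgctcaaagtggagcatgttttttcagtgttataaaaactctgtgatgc
Cyp2c70: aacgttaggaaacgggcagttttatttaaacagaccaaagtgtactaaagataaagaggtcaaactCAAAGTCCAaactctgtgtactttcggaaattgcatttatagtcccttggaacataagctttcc
Cyp3a11: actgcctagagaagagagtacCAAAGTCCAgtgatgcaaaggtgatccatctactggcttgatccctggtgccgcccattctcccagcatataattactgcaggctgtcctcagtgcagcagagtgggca

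Among tested members these letters were common in promoters of genes with and without a call. Within 250 bases before the start, CAAAGNNCA occurred in 26 of 83 promoters of the 73 matched members (31.3%) and in 1803 of all 32851 RefSeq promoters (5.49%). By gene it occurred in 8 of 13 Cyp2c members, 8 of 9 Cyp3a members and 5 of 5 Cyp2d members with a promoter, and in 0 of 5 Cyp2b members. It was present in 5 of 10 members that fell, 1 of 2 that rose, 18 of 42 that were tested and not called, and 1 of 19 below the filter on low counts. Other searches over the same 250 bases gave smaller gaps. TTGCNNAA, a C/EBP form searched on both strands, occurred in 24.1% of member promoters and 9.56% of all. The nuclear receptor repeat unit AGGTCA, on both strands, occurred in 21.7% and 14.0%, and TATAAA, on the gene's strand only, in 25.3% and 7.59%. An HNF1 form occurred in 1.2% and 0.371%, and TTCCNGGAA, a STAT5 form, in 1.2% and 0.913%, both searched on both strands. A match is a string of letters, not a measured binding site.

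Cyp2e1 lost more RNA than any other P450 gene. It encodes the pericentral enzyme that oxidises ethanol and turns acetaminophen into its toxic product, and it is the single member of its subfamily, on chromosome 7 from 140763739 to 140774987. It had 7295 and 8041 CPM in the controls, against 2265 and 1266 CPM after deletion. The groups did not overlap, and the gene fell 4.34-fold (log2 -2.12 ± 0.33, adjusted p = 0.0213). The 2 deletion libraries were further apart than the controls, with the lower value in replicate 2, the library that held Y-linked RNA. About 11.4% of the 75-base windows near the Cyp2e1 transcript end also occur in genes that are not P450s.

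Cyp2b genes answer to CAR, and Cyp2b10 is the usual marker of CAR activity in mouse liver. Cyp2b10 had 43.2 and 31.3 CPM in the controls, against 5.99 and 13.8 CPM after deletion. It fell 3.75-fold (log2 -1.91 ± 0.39, adjusted p = 0.0446), and the call was lost without deletion replicate 1 (0.0517) and with library sizes alone as the scale (0.0586). The female-predominant Cyp2b9 had 251, 70.3, 58.5 and 31.8 CPM, in the order control replicates 1 and 2 and deletion replicates 1 and 2 (log2 -1.83 ± 0.60, adjusted p = 0.133). Cyp2b13, also female-predominant, had 53.4, 1.65, 1.26 and 1.49 CPM in that order (log2 -4.31 ± 1.42, adjusted p = 0.132). In both the groups differ through control replicate 1: without control replicate 2 the adjusted p was 1.34e-05 for Cyp2b9 and 2.57e-09 for Cyp2b13. The Cyp2b sum was 348 and 103 CPM, then 65.8 and 47.2 CPM (log2 -1.998 ± 0.54, adjusted p = 0.0864). It passed without either control, at log2 -0.87 (0.0160) without replicate 1 and -2.62 (8.69e-07) without replicate 2.

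The receptor CAR was tested beside its P450 targets. Nr1i3, the gene of CAR, had 73.2 and 55.5 CPM in the controls, against 12.4 and 13.6 CPM after deletion, and fell 4.94-fold (log2 -2.30 ± 0.19, adjusted p = 0.00465). Of 7 listed CAR or PXR targets among the P450 genes, 3 fell (Cyp2b10, Cyp2c29 and Cyp2c37), none was called higher and the median log2 fold change was -0.44. The 4 without a call were Cyp2c55, Cyp3a11, Cyp3a13 and Cyp2a5. Over all tested members 19.7% fell and the median was -0.80. The targets thus had a larger share of genes that fell but a less negative median, and neither difference was tested. Over all tested genes 2.16% fell. Nr1i2, the gene of PXR, had 131, 163, 141 and 125 CPM in the library order above (log2 -0.15 ± 0.17, adjusted p = 0.665), with overlapping groups and a positive sign with library sizes alone (0.14) and without control replicate 2 (0.02).

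Cyp3a enzymes metabolise a large part of all drugs and also steroids. The Cyp3a sum was 4626 and 3411 CPM in the controls, against 2981 and 3583 CPM after deletion (log2 -0.29 ± 0.24, adjusted p = 0.523), with overlapping groups and a value of 0.002 with library sizes alone. Cyp3a11, the main hepatic member and a PXR target, had 3326 and 2707 CPM, then 2576 and 3146 CPM (log2 -0.08 ± 0.22, adjusted p = 0.876). Its sign turned with library sizes alone (0.22), with the Y-linked share in the fit (0.19), without control replicate 1 (0.08) and without deletion replicate 1 (0.05). The difference in Cyp3a11 was thus smaller than the spread between its replicates. Cyp3a13 had 178 and 217 CPM, then 144 and 147 CPM (log2 -0.44 ± 0.16, adjusted p = 0.168). Cyp3a25 ranged from 413 to 865 CPM in the controls and from 229 to 238 CPM in the deletion libraries, and Cyp3a59 from 20.4 to 245 and from 29.0 to 34.2 CPM; neither was called.

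Cyp3a57 was called higher from few reads, and it passed the filter on low counts only through the deletion libraries, where it was higher. Its call and its place among the members that rose are therefore not independent of that filter. It had 0 and 1 counts in the controls, against 14 and 18 after deletion, a depth-adjusted ratio of 26.2 with a 95% counting interval from 4.37 to 1065 (adjusted p = 0.0464). The call was lost with DESeq2 (0.0774), without control replicate 1 (0.107) and without either deletion library (0.171 without replicate 1, 0.287 without replicate 2). The female-predominant Cyp3a44 had 9.50 and 46.4 CPM, then 1.92 and 7.93 CPM (log2 -2.49 ± 0.87, adjusted p = 0.153), and passed without control replicate 1 (-3.23, 0.000107). The other female-predominant Cyp3a genes had few reads: Cyp3a16 was at 0.802, 1.17, 0.495 and 5.97 CPM, Cyp3a41a at 0.0617, 3.57, 0.714 and 2.06, and Cyp3a41b at 2.22, 0.481, 0.440 and 1.34. None of these 3 was called, and the sign of each turned when single libraries were left out. Cyp3a41a reached log2 4.35 (adjusted p = 0.0292) without control replicate 2, but this gene and Cyp3a41b have identical 3' ends.

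Cyp2a enzymes hydroxylate coumarin, nicotine and steroids. The Cyp2a sum was 2996 and 2551 CPM in the controls, against 2494 and 1586 CPM after deletion (log2 -0.44 ± 0.27, adjusted p = 0.373); both deletion libraries lay below both controls, and no Cyp2a gene was called (2 lower and 0 higher at an unadjusted p under 0.05; DESeq2 called 1 lower). Cyp2a5, the pericentral coumarin hydroxylase, had 1399, 1013, 1274 and 706 CPM (log2 -0.28 ± 0.32, adjusted p = 0.650) and a value of 0.08 without deletion replicate 2. Cyp2a4, its female-predominant near copy that hydroxylates testosterone, had 435, 653, 554 and 358 CPM (log2 -0.25 ± 0.29, adjusted p = 0.650). Its sign turned with library sizes alone (0.03), without control replicate 2 (0.07) and without deletion replicate 2 (0.02). Both genes overlapped between the groups, and they share 75-base windows with each other. Cyp2a12 was at 823 to 896 CPM in the controls and at 499 to 628 CPM in the deletion libraries, and Cyp2a22 at 61.6 to 268 and at 23.3 to 39.5 CPM.

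Cyp2d enzymes oxidise many basic drugs. The Cyp2d sum was 2579 and 2881 CPM in the controls, against 1742 and 1510 CPM after deletion (log2 -0.75 ± 0.20, adjusted p = 0.0810; DESeq2 0.00192). Of 6 tested genes 1 fell and none was called higher (5 lower at an unadjusted p under 0.05; DESeq2 called 5 lower). The gene that fell was Cyp2d40, with 47.1 and 45.5 CPM in the controls, against 26.1 and 18.0 CPM after deletion (2.10-fold lower, log2 -1.07 ± 0.21, adjusted p = 0.0379). The call was lost without deletion replicate 2 (0.151) and with library sizes alone (0.0517). Cyp2d26, the most abundant, had 880 and 836 CPM, then 554 and 465 CPM (log2 -0.75 ± 0.18, adjusted p = 0.0619). Cyp2d9, the male-predominant testosterone hydroxylase, had 605 and 953 CPM, then 448 and 377 CPM (log2 -0.92 ± 0.26, adjusted p = 0.0949; 0.00419 without control replicate 1). In these 3 genes the groups did not overlap. Cyp2d10 ranged from 732 to 784 CPM in the controls and from 474 to 528 CPM in the deletion libraries, Cyp2d22 from 258 to 314 and from 176 to 181 CPM, and Cyp2d11 stayed under 3 CPM.

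Cyp2f2, the single Cyp2f gene, fell. Its enzyme activates naphthalene, and in liver it marks periportal hepatocytes. It had 959 and 989 CPM in the controls, against 436 and 347 CPM after deletion (2.49-fold lower, log2 -1.31 ± 0.19, adjusted p = 0.0174); without deletion replicate 2 the adjusted p was 0.0823. The controls lay within a few percent of each other, and the groups were far apart.

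The Cyp1 genes are targets of AhR, which senses planar aromatic compounds. None of the 3 was called (1 lower and 1 higher at an unadjusted p under 0.05; DESeq2 called Cyp1a2 lower and Cyp1a1 higher). Cyp1a2, the abundant pericentral enzyme that clears caffeine, had 1212 and 888 CPM in the controls, against 735 and 467 CPM after deletion (log2 -0.80 ± 0.28, adjusted p = 0.150; 0.0272 without control replicate 2). Cyp1a1, low in unexposed liver, had 2.10 and 2.95 CPM, then 5.72 and 6.02 CPM (log2 1.22 ± 0.31, adjusted p = 0.0720). Cyp1a1 passed with library sizes alone (0.0333), with DESeq2 (0.0497) and without control replicate 2 (0.0249). The 2 Cyp1a genes lay next to each other on chromosome 9 and had opposite signs. Cyp1b1 stayed between 0.440 and 0.687 CPM (log2 -0.29 ± 0.52, adjusted p = 0.784). Ahr itself had 59.6, 82.1, 65.6 and 96.3 CPM (log2 0.19 ± 0.25, adjusted p = 0.696), with values of -0.02 without control replicate 1 and -0.11 without deletion replicate 2.

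The Cyp4 genes kept here act on leukotrienes and fatty acids. Cyp4v3, the mouse form of a fatty acid hydroxylase mutated in a human crystalline retinal disease, had 276 and 359 CPM in the controls, against 181 and 168 CPM after deletion. It fell 1.82-fold (log2 -0.86 ± 0.19, adjusted p = 0.0499), the weakest of the 14 calls. That call was lost with library sizes alone (0.0855), without control replicate 2 (0.0600) and without either deletion library (0.136 without replicate 1, 0.243 without replicate 2). The sum for Cyp4v, which holds this gene alone, behaved alike (adjusted p = 0.0483; 0.0569, 0.128 and 0.232 without those libraries). Cyp4f16 rose: it had 5.74 and 5.91 CPM in the controls, against 16.27 and 15.6 CPM after deletion (2.73-fold higher, log2 1.45 ± 0.19, adjusted p = 0.0139). Without deletion replicate 1 or 2 its adjusted p was 0.0577 and 0.0647. The other Cyp4f genes did not share that direction as a group. Cyp4f14, the main hepatic one, which inactivates leukotriene B4, had 382 and 325 CPM, then 244 and 165 CPM (log2 -0.79 ± 0.23, adjusted p = 0.101; 0.0268 without control replicate 2). Cyp4f13 ranged from 69.5 to 70.3 CPM and from 52.0 to 54.3 CPM, Cyp4f15 from 132 to 183 and from 108 to 145 CPM, and Cyp4f17 from 18.9 to 23.3 and from 12.2 to 18.2 CPM. Cyp4f18, known from neutrophils and other myeloid cells, was at 0.123 to 0.275 CPM in the controls. In the deletion libraries it was at 0.934 to 1.13 CPM. It passed the filter on low counts only through the deletion libraries, so its direction is not independent of that filter. The macrophage markers were also higher in those libraries, and the part of those cells was not tested. The Cyp4f sum was 660 and 557 CPM, then 471 and 363 CPM (log2 -0.55 ± 0.20, adjusted p = 0.166), and Cyp4b1 had 9.69 to 10.3 and then 5.20 to 5.99 CPM (log2 -0.84 ± 0.23, adjusted p = 0.0880).

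Cyp2j5, an arachidonic acid epoxygenase of liver and kidney, had 447 and 398 CPM in the controls, against 288 and 293 CPM after deletion (log2 -0.54 ± 0.16, adjusted p = 0.105; DESeq2 0.0326). The groups did not overlap, whereas Cyp2j6 (59.0 to 77.6 CPM over all libraries) and Cyp2j9 (5.28 to 12.9 CPM) overlapped. The Cyp2j sum was 531 and 470 CPM, then 369 and 368 CPM (log2 -0.44 ± 0.16, adjusted p = 0.162).

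The P450 genes that handle signalling molecules were not called. Of the retinoic acid hydroxylases, Cyp26a1 had 7.40, 10.99, 9.18 and 5.35 CPM (log2 -0.34 ± 0.35, adjusted p = 0.609) and Cyp26b1 had 13.2, 8.18, 13.6 and 8.08 CPM (log2 0.02 ± 0.35, adjusted p = 0.980); both overlapped between the groups, and 0 of the 2 passed by DESeq2 or at an unadjusted p under 0.05. The sign of Cyp26b1 turned without control replicate 2 (-0.28) and without deletion replicate 1 (-0.41). Cyp2r1, a vitamin D hydroxylase, had 12.9, 13.5, 11.5 and 10.8 CPM (log2 -0.24 ± 0.18, adjusted p = 0.472; 0.05 with library sizes alone). Cyp17a1, the female-predominant steroid hydroxylase and lyase, had 70.9 and 149 CPM in the controls, against 64.96 and 48.1 CPM after deletion (log2 -0.96 ± 0.36, adjusted p = 0.171; 0.000459 without control replicate 1). Cyp17a1 was the 1 steroid-synthesis P450 with enough counts to test. The orphan Cyp20a1 was at 14.98 to 17.7 CPM in all 4 libraries (log2 0.03 ± 0.18, adjusted p = 0.950), with values of -0.09 without control replicate 2 and -0.07 without deletion replicate 2.

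The remaining single-gene subfamilies were low. Cyp2g1, an olfactory P450, had 9.50 CPM in control replicate 1 and 2.80 to 3.24 in the other libraries (adjusted p = 0.267; 0.00447 without control replicate 2). Cyp2s1 had 5.92 CPM in control replicate 1 and 0.275 to 0.823 in the others (log2 -2.12 ± 1.15, adjusted p = 0.322). Its direction rested on control replicate 1, at 1.35 without it and -3.04 without control replicate 2 (0.000463). Cyp2u1 had 13.9 CPM in control replicate 1 and 6.64 to 7.58 in the others (adjusted p = 0.329; 0.0280 without control replicate 2). In these 3 genes control replicate 1 stands above the other 3 libraries. Cyp2t4 had 1.42, 0.756, 0.495 and 0.257 CPM (log2 -1.53 ± 0.60, adjusted p = 0.189). It passed the filter on low counts only through the controls, where it was higher, so its direction is not independent of that filter.

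The 27 members below the filter had at most 47 counts in any library, so differences among them were mostly not detectable at this depth. Cyp19a1, Cyp24a1, Cyp2b19, Cyp2c66, Cyp2j7, Cyp2j11, Cyp2j12 and Cyp2w1 had 0 counts in all 4 libraries. Cyp21a1, the adrenal steroid hydroxylase, had 0 and 0 counts in the controls, against 13 and 9 after deletion; a count of 0 still allows up to 3 in each control. Its near copy Cyp21a2-ps, a pseudogene, had 98 and 135 counts in the controls, against 239 and 173 after deletion. Of 226 sequence windows near the Cyp21a1 transcript end, 0 also occur in another gene. Whether reads of the pair were exchanged was not tested. Cyp2d12 had 1 and 6, then 33 and 8 counts, and Cyp4x1 had 11 counts in control replicate 1 and 0 elsewhere. Cyp21a1 and Cyp2d12 were singled out after their values were seen.

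No gene of the electron supply was called. Por had 973 and 1287 CPM in the controls, against 630 and 472 CPM after deletion (2.05-fold lower, log2 -1.04 ± 0.24), and missed the threshold (adjusted p = 0.0572; 0.00588 without control replicate 1; DESeq2 0.000595). The groups did not overlap. Of 8 other tested electron partners none was called (2 lower and 0 higher at an unadjusted p under 0.05; DESeq2 called 1 lower), with a median of -0.20. Cyb5a, the cytochrome b5 of the endoplasmic reticulum, had 831 and 924 CPM, then 573 and 502 CPM (log2 -0.71 ± 0.18, adjusted p = 0.0703); it was singled out after its values were seen.

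Heme synthesis showed 1 call. Cpox, which makes protoporphyrinogen late in the pathway, had 216 and 199 CPM in the controls, against 94.0 and 76.1 CPM after deletion. It fell 2.44-fold (log2 -1.29 ± 0.17, adjusted p = 0.0139; 0.0770 without deletion replicate 2). Alas1, the rate-limiting enzyme, had 693, 1285, 992 and 649 CPM (log2 -0.27 ± 0.35, adjusted p = 0.697), with overlapping groups and a sign that turned with library sizes alone (0.02) and without control replicate 2 (0.24). Hmox1, which breaks heme down, had 23.9 and 33.9 CPM, then 65.1 and 40.8 CPM (log2 0.87 ± 0.28, adjusted p = 0.126; 0.0103 without control replicate 2). Of the 12 genes of heme synthesis and breakdown 1 fell and 11 were not called, beside 2.16% of all tested genes that fell.

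Among 26 tested regulators of P450 genes 2 fell and none was called higher, beside 2.16% and 4.41% of all tested genes. The median was -0.24. At an unadjusted p under 0.05, 5 were lower and 0 higher, and DESeq2 called 4 lower. Besides Nr1i3, the gene that fell was Hlf, a clock-linked transcription factor, with 72.3 and 69.9 CPM in the controls, against 39.3 and 41.7 CPM after deletion (1.76-fold lower, log2 -0.81 ± 0.14, adjusted p = 0.0284). Without deletion replicate 1 or 2 its adjusted p was 0.126 and 0.135, and with library sizes alone 0.0740. Dbp, of the same family, differed more within the controls (122 and 16.28 CPM) than between the groups. Hnf4a had 690 and 788 CPM, then 632 and 651 CPM, and was not called (log2 -0.21 ± 0.17, adjusted p = 0.520). With library sizes alone its log2 fold change was 0.09. Binding of HNF4α was not measured.

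Among the members that fell, only Cyp2e1, Cyp2c29 and Cyp2f2 are on the pericentral or periportal list, and Cyp2f2 alone is periportal. By the same edgeR rule 2.16% of all tested genes fell and 4.41% rose. Of 13 tested pericentral genes 2 fell, both P450s (Cyp2e1 and Cyp2c29), and 1 rose, the amino acid transporter Slc1a4, with 11.6 and 8.66 CPM in the controls, against 43.6 and 45.1 CPM after deletion (4.37-fold, log2 2.13 ± 0.19, adjusted p = 0.00524). At an unadjusted p under 0.05, 7 pericentral genes were lower and 1 higher, and DESeq2 called 6 lower and 1 higher. The pericentral P450s Cyp1a2 and Cyp2a5 were not called by edgeR. Of 10 tested periportal genes 4 fell: Cyp2f2, the serine dehydratase Sds (log2 -1.46 ± 0.15, adjusted p = 0.00706), the histidine ammonia lyase Hal (-2.22 ± 0.35, 0.0231; 0.0906 without deletion replicate 2) and Pck1 of gluconeogenesis (-0.98 ± 0.21, 0.0487). Pck1 lost its call without deletion replicate 1 (0.127), without deletion replicate 2 (0.129) and with library sizes alone (0.0706). The lipid droplet gene Hsd17b13 rose (0.84 ± 0.16, adjusted p = 0.0357), a call lost without either deletion replicate (0.133 and 0.124). At an unadjusted p under 0.05, 7 periportal genes were lower and 1 higher, as by DESeq2. The median log2 fold change was -0.80 over the pericentral list and -1.01 over the periportal list, both beside -0.0036 over all tested genes, and the difference between the lists was not tested.

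Most sex-dependent members had a negative log2 fold change, as most tested members had, and the deletion libraries held more Xist. Of 10 female-predominant P450 genes 1 fell, Cyp2c40, and none was called higher. Of these 10 genes 9 had a negative log2 fold change, with a median of -1.40. Over all tested members 52 of 61 were negative, with a median of -0.80, and 19.7% fell. The groups overlapped in Cyp2a4, Cyp3a16, Cyp3a41a and Cyp3a41b. At an unadjusted p under 0.05, 6 female-predominant genes were lower and 0 higher, and DESeq2 called 2 lower. The summed level of the 10 genes was 1191 and 1829 CPM in the controls, against 699 and 527 CPM after deletion. The male-predominant Cyp2d9 was also lower in both deletion libraries, as given above.

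Replicates of 1 group were further apart in P450 genes than in most genes. The median absolute log2 ratio between the controls was 0.466 over the tested members and 0.265 over all tested genes, and between the deletion libraries it was 0.416 and 0.230. Between the controls 11 tested members (18.0%) differed over 3-fold, against 3.97% of all tested genes, and between the deletion libraries 7 did. Of the 11, 7 were higher in control replicate 1, led by Cyp2b13 (32.4-fold), Cyp2s1 (21.6-fold) and Cyp3a59 (12-fold). The 4 that were higher in control replicate 2 were Cyp3a41a (21-fold), Cyp2c38 (6.19-fold), Cyp3a44 (4.88-fold) and Cyp2c69 (3.33-fold). In each of those 4 genes deletion replicate 2 was also above deletion replicate 1. Control replicate 1 stood apart in genes outside the family as well, with Krt19, a bile duct keratin, at 39.2 CPM against 3.23 in control replicate 2; the part of this library in the values of these 11 members was not tested.

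**Figure D5:**
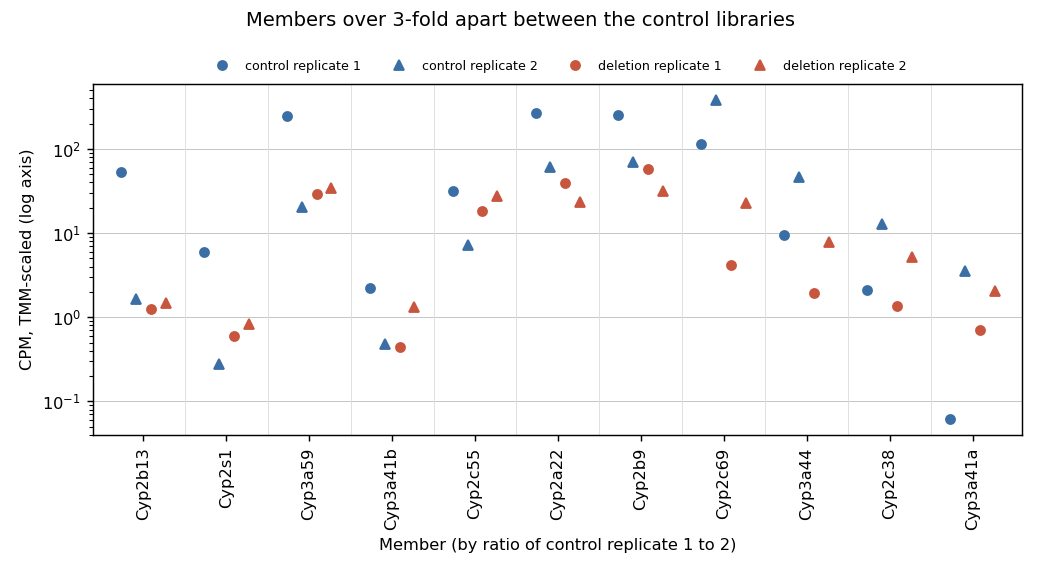
CPM (log axis) in each library of the 11 tested members that differed over 3-fold between the 2 control libraries, ordered by the ratio of control replicate 1 to replicate 2. For Cyp2b13, Cyp2s1 and Cyp3a59 control replicate 1 lies alone above the other 3 libraries, and for the 4 genes at the right replicate 2 is the higher one in both groups.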

How the data were processed

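The deposited values are raw read counts for each Ensembl gene, in 1 table from the authors; per the labels' protocols the libraries were made with QuantSeq 3' mRNA kits, sequenced as single-end 75 bp reads and aligned with Bowtie2, and per the submitters' processing notes the build was mm10 (GRCm38). The counting program, strand setting and handling of reads that match several genes are not given in the sources read. Of 56953 rows, 52029 matched GENCODE M21 and took its symbols; the other 4924 held 0.188% to 0.233% of counts and stayed in the library sizes. Counts were tested with edgeR 4.0.16 in R 4.3.3 (filterByExpr, minimum count 10 and total 15; TMM; quasi-likelihood F test of deletion against control, Benjamini-Hochberg over 14600 genes; 2 residual and 4.14 prior degrees of freedom). Each standard error is the log2 fold change divided by √F. Subfamily sums replaced their members in a second table of 14562 features. Replicates differed by far more than counting noise (chi-square per degree of freedom 38.9 in controls, 25.3 with the deletion), so none was a repeat deposit. DESeq2 1.42.0, other scalings, no filter, a replicate block, a covariate of Y-linked RNA and leaving out each library were the alternatives. In leave-one-out fits the lone library is assumed to vary like the other group. Promoters came from RefSeq (GRCm38.p6), for 73 of 88 members. Named members are those called, the most abundant of each subfamily and those of P450 lists; of the other lists, called genes and Alas1, Hmox1, Nr1i3, Nr1i2, Ahr and Hnf4a. The members and lists were chosen with earlier results of these data known.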

Additional observations from a re-analysis of the deposited data

How the results depend on the processing

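The number of all tested genes called, 959, was 1764 with library sizes alone, 1647 with DESeq2, 2768 without a filter, 390 with the replicate block, 113 with the Y-linked share as a covariate, and 343 to 2081 when 1 library was left out. For members called lower (12) the values were 24, 36 and 1 with DESeq2, without a filter and with the covariate, and 10 to 25 in leave-one-out fits. For members called higher (2) they were 4 with library sizes alone, 7 without a filter, 0 with the block or the covariate, and 0 to 4 in leave-one-out fits. Subfamily sums called lower (4) numbered 7 with DESeq2, 12 without a filter, 0 with the covariate and 2 to 9 in leave-one-out fits, and without a filter 1 sum was called higher. The median over tested members, -0.80, was -0.52 with library sizes alone, -0.97 with the covariate and -0.98 to -0.65 in leave-one-out fits. Library sizes alone shifted the median of all genes to 0.29. Median-ratio (RLE) factors left the member calls at 12 and 2.

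The replicate numbers gave no sign of pairing: deviations of same-numbered libraries correlated at -0.136 over tested genes. That value rests on a single pair of libraries per group, so it cannot exclude a pairing. With the replicate block 11 members were lower and 0 higher, and the call was lost for Cyp2b10, Cyp2d40, Cyp3a57, Cyp4f16 and Cyp4v3 and gained for Cyp2c69 and Cyp3a44. A crossed pairing, chosen after seeing the data, gave 1366 calls in all, 14 members lower and 1 higher.

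Log2 fold changes that turned sign belonged to genes and sums with no call. With library sizes alone they were Cyp2a4 0.031, Cyp2r1 and its sum 0.050, Cyp3a11 0.22, the Cyp3a sum 0.0020, Alas1 0.018, Hnf4a 0.088 and Nr1i2 0.14. With the block Cyp3a41a was at 0.33. With the covariate Cyp1b1 was at 0.079 and its sum at 0.078, Cyp26b1 and its sum at -0.84, Cyp3a11 at 0.19, Cyp3a41a at 1.23 and Cyp3a41b at 0.64. Leave-one-out fits ranged from -3.04 to 1.35 for Cyp2s1 and its sum, -0.23 to 0.076 for Cyp3a11, -1.61 to 0.88 for Cyp3a41b, -1.36 to 4.35 for Cyp3a41a, -0.98 to 2.58 for Cyp3a16 and -0.48 to 1.66 for Cyp2c55. They ranged from -0.088 to 0.15 for Cyp20a1, -0.089 to 0.15 for its sum, -0.41 to 0.40 for Cyp26b1, -0.42 to 0.40 for its sum, -0.61 to 0.068 for Cyp2a4, -0.78 to 0.079 for Cyp2a5, -0.11 to 0.44 for Ahr, -0.65 to 0.24 for Alas1 and -0.30 to 0.021 for Nr1i2. The cause was not tested. Of the 14 member calls, those of Cyp2c23, Cyp2c29, Cyp2c37, Cyp2c40, Cyp2c50, Cyp2c68 and Cyp2e1 were lost with the covariate alone, at adjusted p from 0.0517 to 0.274, and Cyp2c54 kept its call under all 10 alternatives. With 2 libraries a group and 3 counts as the floor, members under about 0.2 CPM cannot be compared.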
